A study of Rattus norvegicus with 18 samples.

Results

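Acetylcholine is made from choline by the enzyme choline acetyltransferase and acts through muscarinic and nicotinic receptors. The genes described here are Chat and Slc5a7, which supply the transmitter, the muscarinic receptors Chrm1, Chrm2, Chrm3 and Chrm4, and the nicotinic receptor subunits Chrna4, Chrna5, Chrna7 and Chrnb2. They were chosen by name: every array probe whose gene name in the scanner files was one of these 10 symbols, or an older name of the same transcript, was taken whatever its value. This gave 14 of the 41012 probes of the array, of which 13 were detected in brain. Chrm1 and Chrm4 had 2 probes each, Chrna7 had 3, and the other 7 genes had 1.

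The rats were alcohol-naive males of the WHP strain, bred for high ethanol preference, and of the WLP strain, bred for low preference, housed with their brothers. The strains were compared in hippocampus, in nucleus accumbens and in prefrontal medial cortex. In each area 3 pools of WHP RNA were set against 3 pools of WLP RNA, each pool mixing equal RNA from 3 rats, and each pair of pools was hybridised on 2 two-colour arrays with the dyes exchanged, 18 arrays in all. The labels do not say whether the same rats gave all 3 areas, nor how many litters or families a pool held, so the p-values measure only the spread between these pools.

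Acetylcholine in the forebrain comes from projection neurons of the basal forebrain, which reach cortex and hippocampus, and from large interneurons of the striatum and accumbens. Muscarinic M1 and M3 receptors couple to Gq proteins and excite, while M2 and M4 couple to Gi proteins and restrain release or firing. Nicotinic receptors are ion channels of 5 subunits: α4 and β2 form the common high-affinity receptor of brain, to which α5 can be added, and α7 assembles with itself. The α5 subunit gene and the striatal M4 receptor have both been studied in animals that drink alcohol or take nicotine.

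The probes are DNA strands of 60 bases, and those that lie in coding sequence show which stretch of each message was measured. They are given 5′ to 3′ as the scanner files hold them, with the rat genome build rn4 coordinates of those files. In the pair of nicotinic probes, capitals mark the bases shared by Chrna4 and Chrnb2 when one probe is laid over the other: they cover homologous stretches of the α4 and β2 subunits with 32 of 55 overlapping bases alike and 23 that differ. No other base is in capitals.
Chat, chr16:7952409-7952468, minus strand: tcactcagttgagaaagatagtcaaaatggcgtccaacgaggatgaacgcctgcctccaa
Chrm1, chr1:211352904-211352963, plus strand: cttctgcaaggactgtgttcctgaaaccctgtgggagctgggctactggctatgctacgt
Chrm2, chr4:63916400-63916459, plus strand: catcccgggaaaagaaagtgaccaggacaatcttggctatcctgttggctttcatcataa
Chrm4, chr3:76308173-76308232, plus strand: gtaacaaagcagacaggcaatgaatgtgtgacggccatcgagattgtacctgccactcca
Chrna4, chr3:170171576-170174943, minus strand: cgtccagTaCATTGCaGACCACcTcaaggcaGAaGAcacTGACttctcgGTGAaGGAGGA
Chrnb2, chr2:181962034-181965748, minus strand: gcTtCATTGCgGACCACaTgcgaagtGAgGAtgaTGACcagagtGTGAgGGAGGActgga
The 60 bases of the Chrna4 and Chrnb2 probes are spread over 3368 and 3715 bases of genome, so each crosses an intron. The second Chrm1 probe also crosses an intron, with 12904 bases between its ends, and lies upstream of the coding probe.

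Median spot brightness per array was between 78.2 and 209 units in green and between 133 and 303 units in red. The array pairs repeated each other unevenly: the correlation of a pair's 2 dye-swapped ratios over the detected probes was 0.57 or more in 6 of 9 pool pairs, 0.30 in hippocampus pair 3, 0.04 in accumbens pair 3 and below 0 in hippocampus pair 2. Accumbens and cortex shared slides and a scan session, and all hippocampus arrays were on other slides of a second session. Differences in level between hippocampus and the other areas therefore cannot be told apart from that session, whereas both strains were always on the same array. A level here is the log2 spot intensity after background correction, an added offset of 50 units and scaling between arrays, and a probe counts as detected if it was well above background on at least 4 of 6 arrays of either strain in an area. As a check of the dissections, the mean level of 15 striatum markers above each channel's median was 3.13 to 3.92 log2 units in WHP and 3.10 to 3.88 in WLP pools of prefrontal medial cortex, nearly that of accumbens (2.79 to 3.81 in WHP and 3.57 to 3.98 in WLP). In hippocampus it was 1.83 to 1.88 in WHP and 1.84 to 2.38 in WLP pools. Averaged over pools it was 3.51 in cortex, 3.53 in accumbens and 2.01 in hippocampus, so these markers did not set cortex apart from accumbens.

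No probe of the 10 genes passed the strain test in any area. Of the 13 detected probes, 0 reached an adjusted p of 0.05 in accumbens, in prefrontal medial cortex, in hippocampus or in the mean of the 3 areas (limma, Benjamini-Hochberg over all detected probes). Among all detected probes 0.252% passed in accumbens, 0.0905% in cortex, 0.25% in hippocampus and 2.85% in the mean, so a count of 0 among 13 is close to that background. At an unadjusted p under 0.05 the members counted 0 in accumbens, 0 in cortex, 3 in hippocampus (Slc5a7, Chrm4 and Chrna4) and 1 in the mean (Chrm4), where 16.3%, 8.45%, 6.68% and 17.8% of all detected probes did so. The tests of a strain difference between 2 areas also called 0 members, where 0 of all 28502 to 29842 probes passed, and 1 member, Slc5a7, had an unadjusted p under 0.05 for cortex minus hippocampus, as did 3.6% of all probes. No member did for accumbens minus cortex or accumbens minus hippocampus, where 3.33% and 8.63% of all probes did.

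**Figure D1:**
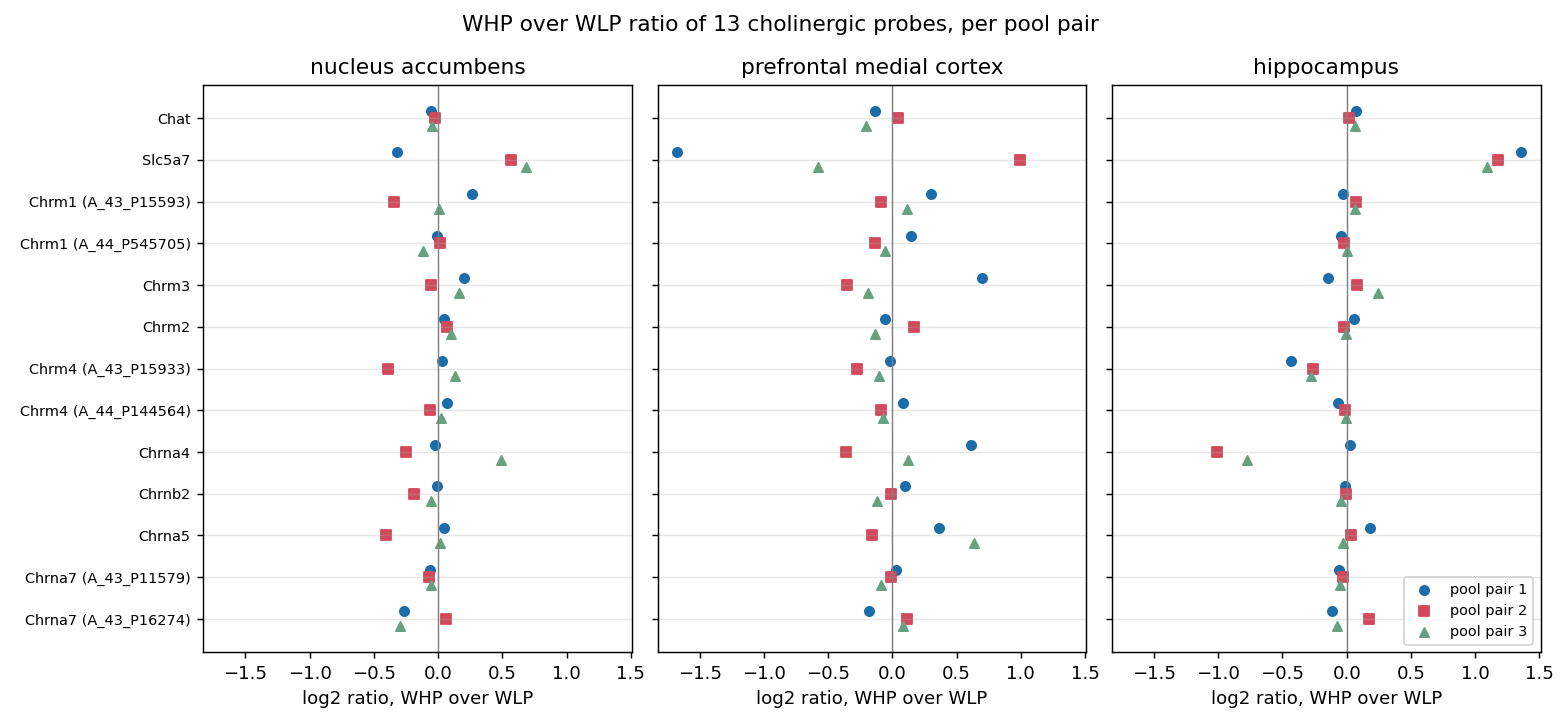
Log2 ratio of WHP over WLP (x axis) for each detected probe (rows) in the 3 areas (panels). Each mark is 1 pool pair, the mean of 2 dye-swapped arrays. Slc5a7 lies at 1.09 to 1.36 in all 3 hippocampus pairs and on both sides of 0 in the other areas, while most other probes lie close to 0.

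The median ratio of the 13 probes lay between -0.09 and 0.08 in the 9 pool pairs, where the median of the 28377 probes detected in all 3 areas lay between -0.01 and 0.01. All 3 pairs of an area had the same sign for 4 of 13 probes in accumbens, 1 of 13 in cortex and 6 of 13 in hippocampus, against 29.2%, 28.8% and 38% of all detected probes. WHP and WLP pools did not overlap for 2 probes in accumbens, 0 in cortex and 3 in hippocampus. That is so for 11.1%, 11.2% and 15.8% of all detected probes in the same areas.

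Slc5a7 encodes the high-affinity choline transporter, which returns choline to cholinergic terminals and limits the rate of acetylcholine synthesis. Its probe lies at chr9:165495-165554 of rn4. In hippocampus its level in WHP pools was 8.60, 8.78 and 8.80 log2 units, against 7.25, 7.61 and 7.70 in WLP pools. Every WHP pool was above every WLP pool, and the 3 ratios were 1.36, 1.17 and 1.09, which is 2.56-, 2.26- and 2.14-fold. All 6 hippocampus arrays gave a ratio between 0.95 and 1.37, including both arrays of pair 2, whose ratios over the detected probes did not repeat.

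The mean hippocampal ratio of Slc5a7 was 1.21 ± 0.41 (SE, 3 pairs), a 2.31-fold higher level in WHP with a 95% interval of 0.27 to 2.14 log2 units. It did not pass (limma adjusted p = 0.551). The standard error is shared by the 3 areas, and the cortex pairs were far apart. With hippocampus fitted alone the same ratio had a standard error of 0.06 and an adjusted p of 0.0279, and with the 18 arrays taken singly, so that dye swaps count as replicates, the adjusted p was 0.0429. Over all 24 alternatives the adjusted p lay between 0.0279 and 1, and the ratio between 1.13 and 1.57.

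In prefrontal medial cortex Slc5a7 stood at 9.38, 11.21 and 9.91 log2 units in WHP pools and at 11.05, 10.21 and 10.48 in WLP pools. The groups overlapped and the pairs went in opposite directions, with ratios of -1.67, 0.99 and -0.58. In accumbens the WHP pools had 11.09, 11.75 and 11.78 and the WLP pools 11.41, 11.18 and 11.09, giving ratios of -0.32, 0.56 and 0.68, again with overlap. The cortex effect minus the hippocampus effect was -1.63 ± 0.58 (SE), which did not pass (limma adjusted p = 0.997).

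**Figure D2:**
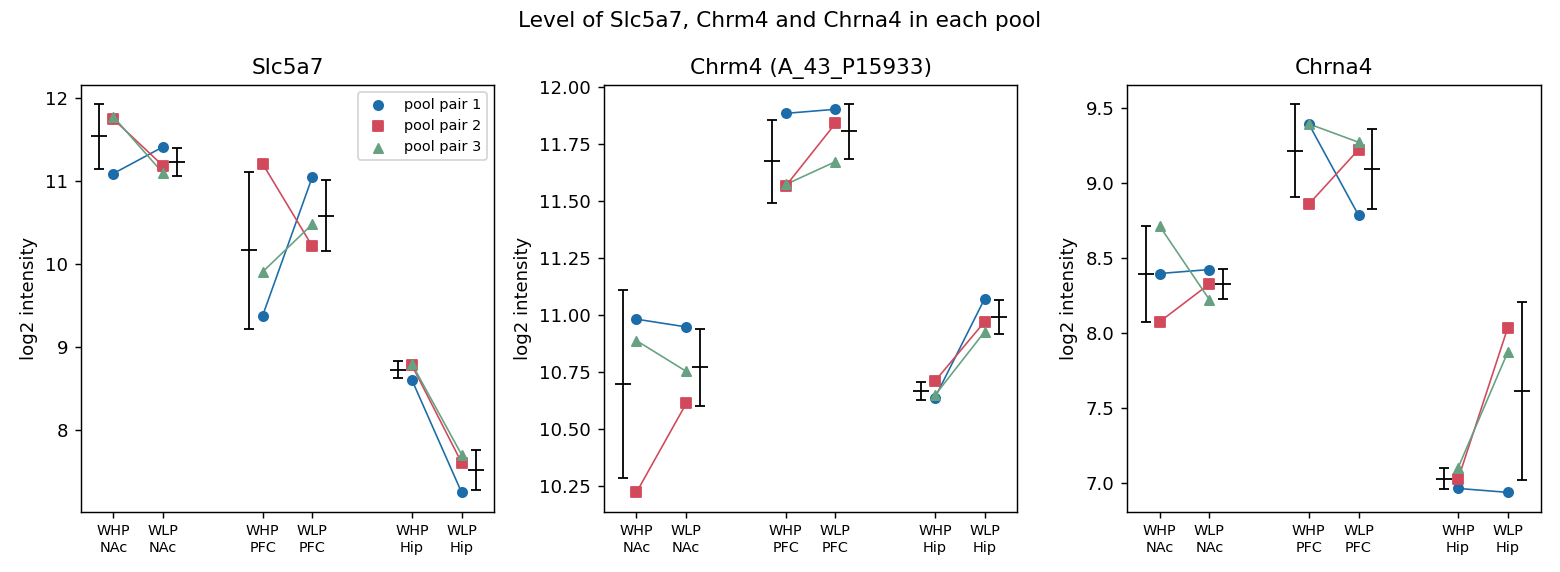
Level (log2 intensity, y axis) of Slc5a7, the brighter Chrm4 probe and Chrna4 in each WHP and WLP pool of accumbens (NAc), prefrontal medial cortex (PFC) and hippocampus (Hip). Lines join the pools of 1 pair, and the black bars are the mean and SD of 3 pools. The hippocampal WHP pools lie above all WLP pools for Slc5a7 and below them for Chrm4, and the 3 hippocampal WLP pools of Chrna4 are split between 6.94 and 8.04.

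Chat encodes choline acetyltransferase, the enzyme that makes acetylcholine. Its probe was dim, between 6.61 and 7.16 log2 units in every pool, where the added offset of 50 units pulls ratios toward 0. In hippocampus the WHP pools had 6.68, 6.63 and 6.70 and the WLP pools 6.61, 6.61 and 6.63, so they did not overlap, yet the 2 arrays of a pair disagreed in sign for all 3 pairs and the mean ratio was 0.05 ± 0.05 (SE; limma adjusted p = 0.993). In cortex the ratios were -0.13, 0.05 and -0.20, and in accumbens -0.05, -0.02 and -0.05. The interval of the accumbens ratio ran from -0.15 to 0.07 log2 units.

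The ratios of Slc5a7 can be set beside those of other genes of cholinergic neurons. In cortex pair 1 the vesicular acetylcholine transporter Slc18a3 had a ratio of -2.10. All 7 listed genes of cholinergic neurons were lower in the WHP pool in cortex pair 1, all 7 were higher in pair 2 and all 7 were lower in pair 3, with medians of -0.87, 0.66 and -0.22. Slc5a7 had the same sign as these genes in all 3 cortex pairs. Only 6 of the 7 genes had a detected probe in cortex and 6 in hippocampus, and the counts and medians keep all 7. Of the 7 genes, 1 is also in the list of striatum markers.

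In hippocampus Slc18a3 had ratios of 0.18, -0.21 and -0.16, and the medians of the 7 genes were -0.0068, -0.067 and -0.065. The 7 genes spread from -0.07 to 0.97 in pair 1, from -0.79 to 0.03 in pair 2 and from -0.51 to 0.18 in pair 3. Of the 7 genes, 2, 2 and 1 were higher in the WHP pool in hippocampus pairs 1, 2 and 3.

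**Figure D3:**
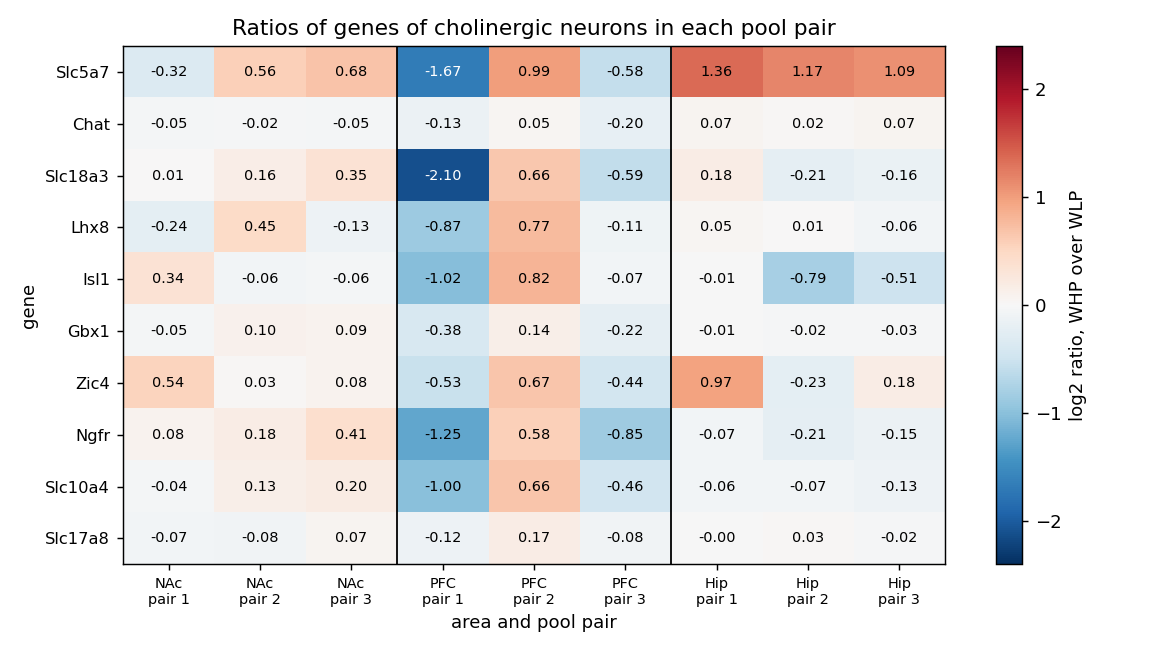
Log2 ratio of WHP over WLP (colour and number) of Slc5a7, Chat, Slc18a3 and the 7 listed genes of cholinergic neurons (rows) in each pool pair (columns) of accumbens (NAc), prefrontal medial cortex (PFC) and hippocampus (Hip). The cortex columns alternate in sign in all rows shown, whereas in hippocampus Slc5a7 is positive in all 3 pairs, at 1.09 or more. Chat is at 0.07, 0.02 and 0.07 there, but its probe was dim and the dye-swapped arrays of each of these pairs disagreed in sign.

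Markers of neighbouring tissue moved in the cortex pairs too, not all with the signs of Slc5a7. In cortex pairs 1, 2 and 3 the striatum markers had median ratios of -0.73, 0.34 and 0.37. The oligodendrocyte markers had -0.79, 0.46 and 0.33 there, and the choroid plexus and ependyma markers -0.09, 1.75 and 0.05. The median ratio of the 9 septum and basal forebrain markers, of which 4 are also in the cholinergic neuron list, was -0.53, 0.35 and -0.32 in cortex pairs 1, 2 and 3, with the summed level of the list at 10.97, 15.82 and 10.72 log2 units above the median in WHP and 15.96, 12.88 and 13.55 in WLP. In hippocampus the same list had medians of -0.0035, -0.07 and -0.06, with sums of 9.33, 9.42 and 9.08 in WHP and 8.67, 10.4 and 9.72 in WLP. The choroid plexus and ependyma markers had hippocampal medians of 1.65, 0.10 and 0.54 and 10, 8 and 10 of 10 genes higher in WHP, and the 10 oligodendrocyte markers had medians of 0.37, 0.48 and 0.18. The part of any of these in the Slc5a7 ratios was not tested, and in pooled tissue fewer cells of a type and less RNA per cell cannot be told apart.

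Across areas Slc5a7 varied more than any other member. It averaged 11.38 ± 0.12 log2 units in accumbens, 10.37 ± 0.29 in cortex and 8.12 ± 0.17 in hippocampus (SD, 3 pool pairs each, both strains averaged). All 3 steps passed: accumbens over cortex was 1.01 ± 0.14, accumbens over hippocampus 3.26 ± 0.14 and cortex over hippocampus 2.25 ± 0.14 (SE; limma adjusted p = 0.000273, 8.27e-08 and 7.73e-07). The cortex pools carried the striatum markers at nearly the accumbens level (means of 3.51 and 3.53 log2 units above the median). The cortex value of Slc5a7 is therefore not that of cortex free of striatal markers. Level tests passed for 9, 11 and 12 of the 13 member probes in these 3 comparisons, where 49.8%, 73.4% and 70.3% of all tested probes passed.

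Chat kept the same order with much smaller steps, at 7.08 ± 0.08 in accumbens, 6.93 ± 0.08 in cortex and 6.64 ± 0.02 in hippocampus (SD, n = 3 pairs each). Accumbens over cortex was 0.15 ± 0.06 and passed narrowly (SE; limma adjusted p = 0.0458). It held in 5 of 18 alternatives, with adjusted p between 0.00207 and 0.981, and ranged from 0.02 to 0.91. With the scanner's own background subtraction in place of the offset the step was 0.91.

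**Figure D4:**
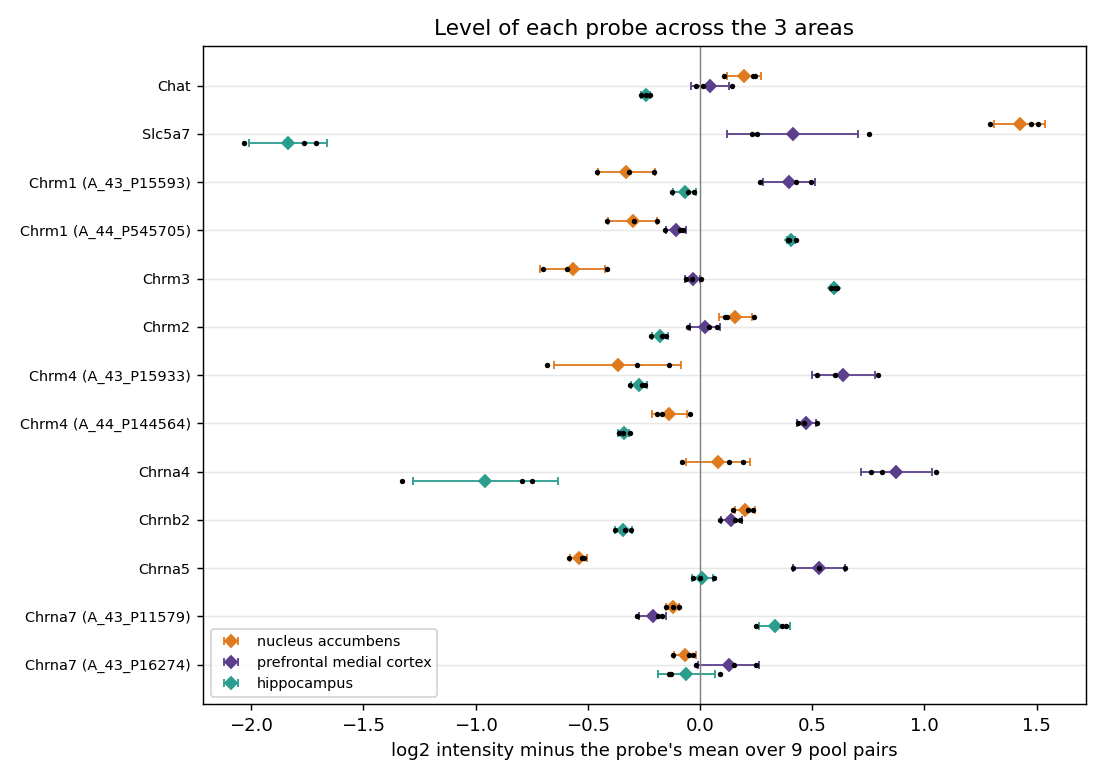
Level of each detected probe in accumbens, prefrontal medial cortex and hippocampus, as log2 intensity minus the probe's mean over the 9 pool pairs (x axis). Diamonds and bars are the mean and SD of 3 pool pairs, dots the single pairs. Slc5a7 spans the widest range, and the 2 probes of Chrm1 place cortex and hippocampus in opposite orders.

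The genes of cholinergic neurons were mostly ordered as Slc5a7 was across areas. Of 8 detected probes of the 7 cholinergic neuron genes, 6 passed the level test as higher in accumbens than in cortex. For accumbens over hippocampus 8 passed as higher, and for cortex over hippocampus 7. In these comparisons 0 passed as lower, although the lowest value for cortex over hippocampus was -0.09. Among all tested probes 25.8%, 35.2% and 32.7% passed as higher in these comparisons, and 24%, 38.2% and 37.6% as lower. Here too the cortex pools carried striatum markers at nearly the accumbens level. The 43 other listed genes of the whole cholinergic list went both ways. Past the threshold, 16 probes were higher and 11 lower in accumbens than in cortex, 22 and 16 for accumbens over hippocampus and 23 and 17 for cortex over hippocampus. Slc18a3 was 4.27 log2 units higher in accumbens than in hippocampus. The genes whose level followed Slc5a7 most closely over the 18 pools were Ap1s2 (r = 0.96), Slc18a3 (r = 0.96) and Lhx8 (r = 0.96), among 12516 named genes. The pools of a pair share arrays and the areas differ, so these values are descriptions.

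Chrm1 encodes the M1 receptor, the most abundant muscarinic receptor of cortex and hippocampus. Its coding probe showed overlap between strains in all areas: the cortex pools had 8.24, 7.88 and 8.21 log2 units in WHP and 7.93, 7.97 and 8.09 in WLP. The mean ratio was 0.11 ± 0.11 (SE) in cortex, 0.04 ± 0.11 in hippocampus and -0.02 ± 0.11 in accumbens, where pairs 1 and 2 differed most, at 0.26 and -0.35. The upstream probe had ratios between -0.14 and 0.14 in all 9 pairs. Over the mean of the 3 areas the 95% interval was -0.10 to 0.18 log2 units for the coding probe and -0.10 to 0.05 for the upstream probe.

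The 2 Chrm1 probes gave different orders of the areas. On the coding probe cortex was highest at 8.05 ± 0.12, hippocampus 7.59 ± 0.05 and accumbens 7.33 ± 0.13, whereas on the upstream probe hippocampus was highest at 8.01 ± 0.02, cortex 7.50 ± 0.04 and accumbens 7.31 ± 0.11 (SD, n = 3 pairs each). Cortex over hippocampus was 0.47 ± 0.08 by the first and -0.51 ± 0.06 by the second, and both passed (SE; limma adjusted p = 0.000343 and 2.63e-05). The upstream value lost its call when arrays were only shifted to a common 75th percentile (-0.21, adjusted p = 0.432), with adjusted p between 1.08e-05 and 0.432 over its 17 alternatives. Accumbens over hippocampus on the coding probe was -0.26 and passed in 15 of 17 alternatives (limma adjusted p up to 0.999). Accumbens over cortex on the upstream probe was -0.19 and passed in 12 of 18 (limma adjusted p up to 0.575). The genes nearest to the coding probe over 18 pools were Kcnh3, Tmem121b and Vps37b (r = 0.97 each).

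Chrm3 encodes the M3 receptor. Its pools had 13.86, 13.97 and 14.03 log2 units in WHP hippocampus and 14.01, 13.88 and 13.79 in WLP hippocampus, and no spot was saturated. The strains overlapped in every area. Cortex pair 1 stood out with a ratio of 0.69, beside -0.35 and -0.19 in pairs 2 and 3, and the median ratios of 9 cortex markers in the same pairs were 0.65, -0.55 and -0.04. The mean ratios were 0.10, 0.05 and 0.06 in accumbens, cortex and hippocampus, each ± 0.17 (SE).

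Over areas Chrm3 was lowest in accumbens at 12.76 ± 0.14, higher in cortex at 13.29 ± 0.03 and highest in hippocampus at 13.92 ± 0.01 (SD, n = 3 pairs each). Accumbens over cortex was -0.54 ± 0.07, accumbens over hippocampus -1.17 ± 0.07 and cortex over hippocampus -0.63 ± 0.07 (SE), and all 3 passed (limma adjusted p = 0.000145, 3.16e-07 and 1.75e-05). The first lost its call with a 75th percentile shift (-0.48, adjusted p = 0.0527). Prickle1, Dyrk2 and Fgf13 had the most similar levels (r = 0.98 each).

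Chrm2 encodes the M2 receptor, which acts on many cholinergic terminals as the autoreceptor. Its levels were low, from 6.89 to 7.41 log2 units. In accumbens the WHP pools had 7.27, 7.41 and 7.30 and the WLP pools 7.22, 7.34 and 7.20, with ratios of 0.05, 0.07 and 0.10 that were all positive but with overlapping groups. The mean ratio was 0.07 ± 0.06 in accumbens, -0.01 ± 0.06 in cortex and 0.01 ± 0.06 in hippocampus (SE). Accumbens was 0.34 ± 0.05 and cortex 0.20 ± 0.05 above hippocampus (SE), both past the threshold, and accumbens and cortex did not differ past it (0.14 ± 0.05, limma adjusted p = 0.0528). These calls moved with the processing: accumbens over cortex passed in 4 of 18 alternatives, and on signals as the scanner had processed them it was 0.62 (adjusted p = 0.00528). The calls of accumbens and of cortex over hippocampus were lost in 1 and 2 of 17, with adjusted p up to 0.0912 and 0.0995, and these values reached 0.92 and 0.62. Magel2, Lpar2 and Amn were nearest in level, with r between 0.96 and 0.97.

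Chrm4 encodes the M4 receptor, found on striatal projection neurons and on cholinergic interneurons. On the brighter probe, toward the 3′ end of the transcript at chr3:76309651-76309710 of rn4, the hippocampus pools had 10.64, 10.71 and 10.65 log2 units in WHP, against 11.07, 10.97 and 10.93 in WLP. No WHP pool reached a WLP pool, and all 6 arrays had a ratio below 0, between -0.47 and -0.20. The mean ratio was -0.33 ± 0.10 (SE) with an interval of -0.54 to -0.11, and it did not pass (limma adjusted p = 0.434, between 0.0507 and 1 over 24 alternatives).

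Elsewhere the brighter Chrm4 probe had ratios of -0.02, -0.28 and -0.10 in cortex and 0.03, -0.39 and 0.13 in accumbens, and the groups overlapped. Its mean over the 3 areas was -0.18 ± 0.06 (SE; limma adjusted p = 0.14). That mean passed with the 18 arrays taken singly (adjusted p = 0.0221) and with only the arrays that carry WHP in Cy5 (-0.25, adjusted p = 0.0179). On the arrays with WHP in Cy3 alone it was -0.10 (adjusted p = 0.422), and all 23 alternatives lay between 0.0179 and 0.477. The median ratios of the 15 striatum markers were 0.01, -0.24 and -0.39 in the hippocampus pairs, where the probe had -0.43, -0.26 and -0.28, and their part was not tested.

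The second Chrm4 probe, in coding sequence, had ratios of -0.07, -0.0092 and -0.0049 in the hippocampus pairs, with WHP pools at 6.68, 6.68 and 6.66 and WLP pools at 6.75, 6.69 and 6.67. It was dim there, and the interval of its mean ratio was -0.13 to 0.08. Both probes put cortex highest: accumbens over cortex was -1.01 ± 0.12 and -0.61 ± 0.05, cortex over hippocampus was 0.91 ± 0.12 and 0.81 ± 0.05 (SE), and these 4 values passed. The cortex pools carried the striatum markers at nearly the accumbens level (means of 3.51 and 3.53 log2 units above the median), so this order does not compare cortex free of striatal markers with accumbens. Accumbens over cortex on the dimmer probe lost its call with a 75th percentile shift (-0.69, adjusted p = 0.116). Accumbens and hippocampus were not ordered alike: the brighter probe gave accumbens over hippocampus as -0.09 ± 0.12 and did not pass (limma adjusted p = 0.512), and the dimmer one as 0.20 ± 0.05 and passed (limma adjusted p = 0.00374), except with that shift (0.57, adjusted p = 0.106). Sema6b, Gabrd and Hrh3 followed the brighter probe most closely (r = 0.95 each).

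Chrna4 encodes the α4 nicotinic subunit. In hippocampus its WHP pools had 6.97, 7.03 and 7.10 log2 units, against 6.94, 8.04 and 7.88 in WLP. The WHP pools and WLP pool 1 lay near 7 log2 units, close to background, where the added offset pulls ratios toward 0. Whether these pools were alike in level therefore cannot be told. The WLP pools were split, with pools 2 and 3 far above pool 1 and the WHP pools. The ratios were 0.03, -1.01 and -0.77, with a mean of -0.59 ± 0.23 (SE; limma adjusted p = 0.682).

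The 9 other listed receptor genes with a detected probe had median ratios of -3.4e-05, -0.02 and -0.0043 in hippocampus pairs 1, 2 and 3. They spread from -0.04 to 0.20 in pair 1, from -0.72 to 0.11 in pair 2 and from -0.33 to 0.11 in pair 3. Rgs4, the gene nearest to Chrna4 in level, had ratios of 0.24, -0.87 and -0.88 in hippocampus pairs 1, 2 and 3. The median ratios of the 15 striatum markers in these pairs were 0.01, -0.24 and -0.39, and their part was not tested. In cortex Chrna4 had ratios of 0.61, -0.36 and 0.12 and in accumbens -0.03, -0.25 and 0.49, with overlapping groups in both.

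Over areas Chrna4 was highest in cortex at 9.16 ± 0.16, lower in accumbens at 8.36 ± 0.14 and lowest in hippocampus at 7.33 ± 0.32 (SD, n = 3 pairs each). All 3 steps passed, with accumbens over cortex at -0.79 ± 0.15, accumbens over hippocampus at 1.04 ± 0.15 and cortex over hippocampus at 1.83 ± 0.15 (SE; limma adjusted p = 0.00161, 0.000122 and 3.51e-06). The first lost its call with a 75th percentile shift (-0.79, adjusted p = 0.0645). The gene nearest in level was Rgs4, a regulator of G-protein signalling (r = 0.99), followed by Crhr1 and Fam241b (r = 0.97 each).

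Chrnb2 encodes the β2 subunit that pairs with α4. Its probe was dim, from 6.54 to 7.21 log2 units. The accumbens pools had 7.16, 7 and 7.16 in WHP and 7.16, 7.19 and 7.21 in WLP, and the highest WHP pool lay just below the lowest WLP pool, with a mean ratio of -0.08 ± 0.05 (SE; limma adjusted p = 0.447). In hippocampus the ratios lay between -0.05 and 0, without the split of the WLP pools seen in Chrna4. The Chrnb2 pools were at 6.54 to 6.64 log2 units there, where the added offset pulls ratios toward 0. These ratios therefore cannot tell whether Chrnb2 was split too. Hippocampus was lowest, with accumbens 0.54 ± 0.04 and cortex 0.48 ± 0.04 above it (SE, both passed), while accumbens and cortex did not differ past the threshold (0.06 ± 0.04, limma adjusted p = 0.291). That value was -0.07 with a 75th percentile shift (adjusted p = 0.921) and, on signals as the scanner had processed them, 0.51, which passed (adjusted p = 0.00441). Rnf4, Otud7a and Sde2 had the nearest levels, with r of 0.97 to 0.98.

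Chrna5 encodes the α5 subunit, which joins α4 and β2 in some receptors and alters their calcium permeability. The cortex pools had 7.99, 7.62 and 8.24 log2 units in WHP and 7.63, 7.78 and 7.61 in WLP. Pairs 1 and 3 were higher in WHP, with ratios of 0.37 and 0.63, and pair 2 was lower at -0.16, so the groups overlapped. The mean was 0.28 ± 0.14 (SE; limma adjusted p = 0.653). In accumbens the ratios were 0.04, -0.41 and 0.01 and in hippocampus 0.18, 0.03 and -0.03.

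Over areas Chrna5 was highest in cortex at 7.81 ± 0.12, lower in hippocampus at 7.29 ± 0.05 and lowest in accumbens at 6.74 ± 0.04 (SD, n = 3 pairs each). Accumbens over cortex was -1.07 ± 0.06, accumbens over hippocampus -0.55 ± 0.06 and cortex over hippocampus 0.52 ± 0.06 (SE; limma adjusted p = 3.24e-06, 1.77e-05 and 3.34e-05). Accumbens over hippocampus lost its call with a 75th percentile shift (-0.27, adjusted p = 0.296) and was -1.68 with the scanner's processed signals. In accumbens 5 of 6 WHP channels were well above background, where every other detected member probe had 6 of 6 in both strains. Pfkp, Ppm1k and Tnfsf15 were nearest in level, with r of 0.96 to 0.97.

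Chrna7 encodes the α7 subunit, whose homomeric receptor passes calcium and is abundant in hippocampus. The brighter of its detected probes, printed as 10 spots on each array, had 9.64, 9.89 and 9.69 log2 units in WHP accumbens and 9.90, 9.83 and 9.99 in WLP accumbens, with ratios of -0.26, 0.06 and -0.30. The groups overlapped, and the mean was -0.17 ± 0.09 (SE; limma adjusted p = 0.388). In cortex and hippocampus the mean ratios were 0.0031 and -0.0027, with intervals of -0.20 to 0.21 and -0.21 to 0.20 log2 units.

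The dimmer Chrna7 probe was lower in WHP in all 3 accumbens pairs, at -0.07, -0.07 and -0.05, and in all 3 hippocampus pairs, at -0.06, -0.03 and -0.05. The accumbens pools did not overlap, at 7.20, 7.17 and 7.15 in WHP and 7.27, 7.24 and 7.21 in WLP. The single arrays of accumbens ran from -0.33 to 0.22, wider than the difference. Its mean over the 3 areas was -0.04 ± 0.02 (SE; limma adjusted p = 0.294), and the 95% interval ran from -0.09 to just above 0.

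The 2 detected Chrna7 probes did not share an order of areas. The dimmer lies at chr1:117587067-117587126 and the brighter at chr1:117533550-117533615 of rn4. Both were assigned to Chrna7 by gene symbol alone, whereas the undetected probe was assigned by its transcript. Whether the detected probes measure the same transcript was not tested. The dimmer probe was highest in hippocampus, with accumbens over hippocampus at -0.45 ± 0.05 and cortex over hippocampus at -0.54 ± 0.05 (SE), both passed (limma adjusted p = 2.07e-05 and 8.12e-06) except with a 75th percentile shift (-0.19 and -0.16, adjusted p = 0.504 and 0.538). The brighter probe gave -0.19 for accumbens over cortex, -0.01 for accumbens over hippocampus and 0.19 for cortex over hippocampus, and none passed (limma adjusted p between 0.0568 and 0.941). The first and last passed in 3 of 18 and 3 of 17 alternatives, with adjusted p down to 0.0195 and 0.0143. Another Chrna7 probe, in the 5′ coding part, was not detected: it was well above background on 2 of 6 WHP and 3 of 6 WLP channels in hippocampus, 0 and 1 of 6 in accumbens and 0 and 0 of 6 in cortex. Gphn, Glul and Capn7 were the genes nearest to the brighter probe, with r of 0.82 to 0.85, the lowest among the members.

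Of 43 other listed genes, 40 had a detected probe. In the mean of the 3 areas, 40 probes of 31 genes were tested, 1 fell and 0 rose. With 2.85% of all probes called in that comparison, 1 of 40 is close to the background. The probe belongs to Gnao1, the Go α subunit through which M2 and M4 receptors signal, with a mean ratio of -0.36 ± 0.07 (SE; limma adjusted p = 0.0316).

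The Gnao1 probe had ratios of -0.58, -0.45 and -0.91 in the accumbens pairs, -0.01, -0.59 and -0.46 in cortex and -0.16, 0.06 and -0.13 in hippocampus. It was lower in WHP in 8 of 9 pairs. The brighter Gnao1 probe did not follow it, with ratios of 0.02, -0.11 and -0.14 in accumbens and 0.24, -0.34 and 0.08 in cortex. In hippocampus the brighter probe had 0.05, 0.10 and -0.42. In accumbens, cortex and hippocampus taken alone, 0 of 43, 0 of 41 and 0 of 48 listed probes passed, and their median ratios were -0.01, -0.03 and -0.03.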

How the data were processed

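RNA levels were read from 18 Agilent arrays with 2 dyes each. The deposited scanner files give spot intensity per channel (Feature Extraction 10.10.1.1, per the file headers). The authors' deposited value table holds log2 ratios: over detected probes its columns correlated with the ratios computed here at 0.935 to 0.996 in the WHP over WLP direction, with slopes of 1.07 to 1.37 and medians of -0.01 to 0.02. Its exact normalization is not given in the sources used here.

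Intensities were corrected (limma 3.58.1 in R 4.3.3, normexp, offset 50), loess normalized, cleared of spots flagged non-uniform and averaged per probe. Dye swaps were averaged to 9 pool pairs, which were fitted by area. Levels are mean log2 intensities after between-array quantile scaling; intensities of different probes are not comparable. A probe was detected if well above background on 4 of 6 arrays of either strain. The threshold was an adjusted p of 0.05. The number of arrays limits precision. The fit was tested on simulated data.

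Members, lists and rules for named genes (all member probes; the 3 genes nearest in level to each gene's brightest probe; other listed genes where they passed a strain or level test, and as counts, ranges or a plot otherwise) were chosen with earlier results of these data known. One gene of the cholinergic neuron and septum lists is not reported here, and counts, medians and sums of those lists leave it out. Accumbens and cortex samples sharing a replicate number also shared a slide. Samples sharing a number did not deviate together in every pair: correlations between areas ran from -0.38 to 0.18.

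Alternatives changed the background correction, normalization, filter, dye, samples, block and scaling. The markers of astrocytes, meninges and hippocampus were also summarised; medians per pair lay between -0.28 and 0.04, -1.01 and 2.50, and -0.12 and 0.08.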

Additional observations from a re-analysis of the deposited data

How the results depend on the processing

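Of 1275 recomputed strain values of the 13 detected probes, 1199 kept their side of the threshold and their sign, 4 passed that had not, and 72 uncalled values changed sign. The count of members past the threshold was 0 in every strain comparison and alternative except that it was 1 in hippocampus with 18 arrays singly and with each area fitted alone (Slc5a7), and 1 in the mean of the areas with 18 arrays singly and with WHP in Cy5 alone (Chrm4). Of 676 level values, 36 lost their call, 12 gained one and 0 called values reversed. With the 75th percentile shift the member calls fell to 4 for accumbens over cortex and 4 for accumbens over hippocampus, against 9 and 11, and calls over all probes fell to 3614 and 12050, against 15163 and 25787. That shift moved the median of all probes by 0.20 for accumbens over hippocampus and 0.29 for cortex over hippocampus, and the scanner's processed signals moved it by 0.15, -0.12 and -0.25 in the 3 level comparisons. The cause of these changes was not tested.

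Same-numbered pool pairs of accumbens and cortex share a slide, and the labels do not tie a number to the same rats. With the slide as a block, 0 members passed a strain test in accumbens or cortex. Calls over all probes were 1 and 1 in these strain tests, against 76 and 26. In the level test between these areas 9 member probes passed, as in the main fit, where 49.8% of all tested probes passed. With the replicate block the members called were 0 in the 7 strain comparisons and 8, 11 and 12 in the level comparisons (Chat lost accumbens over cortex, adjusted p = 0.0503). The main fit called 9, 11 and 12 in these level comparisons, where 49.8%, 73.4% and 70.3% of all tested probes passed. Slc5a7 in hippocampus stayed at 1.21 with the replicate block (limma adjusted p = 0.551). The hippocampal Slc5a7 ratio was 1.13 to 1.27 when 1 hippocampus pair was left out, with adjusted p of 0.994 to 1, and 1.23 without the 2 pool pairs whose dye swaps did not repeat (adjusted p = 1), where 0 members passed.

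Probes near 7 log2 units (Chat, Chrm2, Chrnb2, the dimmer Chrm4 and Chrna7 probes, and Chrna5 in accumbens) sit close to background, so their ratios are compressed, and 3 pool pairs per area limit what the strain test can detect.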
